A study of Homo sapiens with 17 samples.

Results

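The genes described here are 58 cytosolic ribosomal protein genes, of 19867 genes in a table of newly made RNA from SNU-761 cells, a long-established line from a human liver carcinoma. They were taken by a supplied list of Ensembl gene IDs, 43 for the large ribosomal subunit and 15 for the small subunit. The list leaves out other ribosomal protein genes, most of them of the small subunit. RPL27A (ENSG00000166441) was chosen by measured values of these libraries: its counts were lower with VT107 than with DMSO. Its VT107 values are therefore given below as a description, without a test. The other members entered by gene family, and no threshold on a measured value separates them from other genes. The choice of this family was made with earlier results of these data known. The deposited table holds Ensembl IDs without names, and the RefSeq table used for names held none of these IDs. Symbols therefore follow the symbol ranges and order of the supplied list and standard Ensembl naming, and single pairs of ID and symbol were not checked against a table.

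The assay was SLAM-seq, which marks new RNA chemically. In it cells take up thiouridine, iodoacetamide alkylates it in the extracted RNA, and the sequencer reads a C where the genome has a T. Wild-type SNU-761 cells were treated for 4 h. In the first experiment VT107, a small-molecule inhibitor of all TEAD transcription factors, was given at 0.1 or 2.15 µM, with DMSO as the control and 2 libraries in each group. In the second, an intetumumab biosimilar, an antibody to the integrin subunit ITGAV, was given at 1.5 or 5 µg/ml and compared with 5 µg/ml of a human isotype IgG1, with 3 libraries per group. Each experiment also had 1 library from cells without thiouridine. The question was what each agent does to transcription soon after its addition. The 15 labelled libraries held between 435343 and 1778876 counts. The labels do not say whether replicate libraries come from different cultures, and p-values here reflect just the scatter of these libraries, which may be technical. In bulk RNA, fewer cells and less RNA per cell cannot be told apart. The label liver carcinoma was not checked against marker genes, since no table used here links IDs to names.

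The ribosome joins a small subunit, which reads the messenger RNA, to a large subunit, which forms the peptide bonds and passes the chain out through an exit tunnel. Most of these proteins occur once in each subunit, and cells make the ribosomal proteins in balance with each other and with ribosomal RNA. Their mRNAs are short, abundant and long-lived, and most begin with a C followed by a run of pyrimidines, the terminal oligopyrimidine or TOP motif, through which growth signals set their translation. Ribosomal protein genes also have many processed pseudogenes of near-identical sequence in the human genome. How reads matching several genes were handled is not given in the sources used here, so the counts of single members are uncertain to that extent.

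The start regions of 8 members are shown because the TOP motif is the sequence feature these genes share. Each line gives the 15 bases before the annotated transcription start and the 15 bases from it, in RefSeq's GRCh38.p14 sequence, read 5′ to 3′ on the gene's strand, with the longest pyrimidine run in capitals.
RPL27A, chr11:8682777-8682806, plus strand: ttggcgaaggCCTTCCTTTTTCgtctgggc
RPL13, chr16:89560642-89560671, plus strand: ggCCCTgctatcatcccagagtgcattgcg
RPL32, chr3:12841551-12841580, minus strand: gggttacgacccatcagCCCTTgcgcgcca
RPL10A, chr6:35468386-35468415, plus strand: tgcgcaagacatgctagTCTCTTTTCCggt
RPL38, chr17:74203663-74203692, plus strand: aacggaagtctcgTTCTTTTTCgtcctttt
RPL35, chr9:124861943-124861972, minus strand: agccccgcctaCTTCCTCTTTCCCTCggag
RPL12, chr9:127451392-127451421, minus strand: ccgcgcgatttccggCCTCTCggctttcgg
RPLP1, chr15:69452803-69452832, plus strand: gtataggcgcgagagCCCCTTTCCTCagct
The run crossed or began at the annotated start in RPL27A, RPL38, RPL35, RPL12 and RPLP1. In RPL13 no run was longer than 4 bases, and the first of that length is marked.

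RefSeq start regions were found by symbol for 46 of the 58 members. A C stood at the annotated start in 33 of them (71.74%), against 11.27% of 15843 protein-coding genes, and the first 5 bases were all pyrimidines in 30 (65.22%), against 4.904%. A run of at least 8 pyrimidines lay within 15 bases of the start in 33 (71.74%), against 13.24%. In the window from 250 bases before to 50 after the start, both strands were searched for 3 further words. GGAATG, the core of the TEAD motif, was found in 4 of 46 members (8.696%), namely RPL6, RPL7A, RPL10 and RPL38, against 11.72% of coding genes. CCGGAAG, the core of the ETS motif, was found in 18 (39.13%), against 14.23%, and TATAAA in 4 (8.696%), against 9.626%. These matches describe letters in this window and do not show binding.

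The 250 bases before the RPL27A start are shown because this gene had the lowest fold change of the 58 at 2.15 µM VT107 against DMSO.
RPL27A, chr11:8682542-8682791, plus strand: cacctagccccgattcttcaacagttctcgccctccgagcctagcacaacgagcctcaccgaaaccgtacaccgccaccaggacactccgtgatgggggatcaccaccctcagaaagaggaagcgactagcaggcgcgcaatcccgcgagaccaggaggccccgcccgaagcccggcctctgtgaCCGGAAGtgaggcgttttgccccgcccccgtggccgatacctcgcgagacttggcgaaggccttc
The capitals mark the 1 ETS core, 65 bases before the start. GGAATG was not among the letters of the RPL27A window.

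New RNA of RPL27A, a protein of the large subunit, was lower at both doses of VT107. Its raw counts were 2162 and 1799 with DMSO, 1063 and 1116 at 0.1 µM, and 1165 and 1004 at 2.15 µM. Scaled to counts per 1000000 of the library's effective size (CPM), these became 2320 and 1739 CPM with DMSO, 1252 and 1402 CPM at 0.1 µM, and 630.4 and 774.3 CPM at 2.15 µM. The groups did not overlap, and both libraries at 2.15 µM lay below both at 0.1 µM, which lay below both with DMSO. The fitted log2 fold change against DMSO was -1.53 (SE 0.20), or 2.89-fold lower, at 2.15 µM and -0.61 (SE 0.19), or 1.53-fold lower, at 0.1 µM. The log2 fold change of 2.15 against 0.1 µM was -0.92 (SE 0.20). RPL27A was the only member with an adjusted p under 0.05 against DMSO at 2.15 µM, 1 of 58, where 0.109% of all 10083 genes tested had one. Since this contrast chose the gene, nothing is read from that count. The count was 0 of 58 when the first DMSO library, or either library at 2.15 µM, was left out, and the log2 fold change without that DMSO library was -1.31. At 0.1 µM it was -0.39 without that library. At 0.1 µM against DMSO, and at 2.15 against 0.1 µM, 0 of 58 members passed, where 0.0% of all genes did.

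RPL27A was set against the other 57 members library by library, on the log2 CPM scale relative to the mean of the DMSO libraries. With DMSO the median of the other 57 was 0.30 and -0.30, at 0.1 µM it was 0.19 and 0.22, and at 2.15 µM -0.40 and -0.04. RPL27A minus that median was -0.09 and 0.09 with DMSO, -0.87 and -0.74 at 0.1 µM, and -1.27 and -1.34 at 2.15 µM. The distance of RPL27A from the rest had means of -0.81 ± 0.095 at 0.1 µM and -1.30 ± 0.049 at 2.15 µM (SD, n = 2). With DMSO its SD was 0.13, around a mean set to 0 by the choice of reference. An SD from 2 libraries is a rough measure of spread. The median of the rest differed by more between the DMSO libraries than between the group means. At 0.1 µM, 4 of the 57 lay below RPL27A in each library. At 2.15 µM, 0 did in the first library and 1 in the second.

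**Figure D1:**
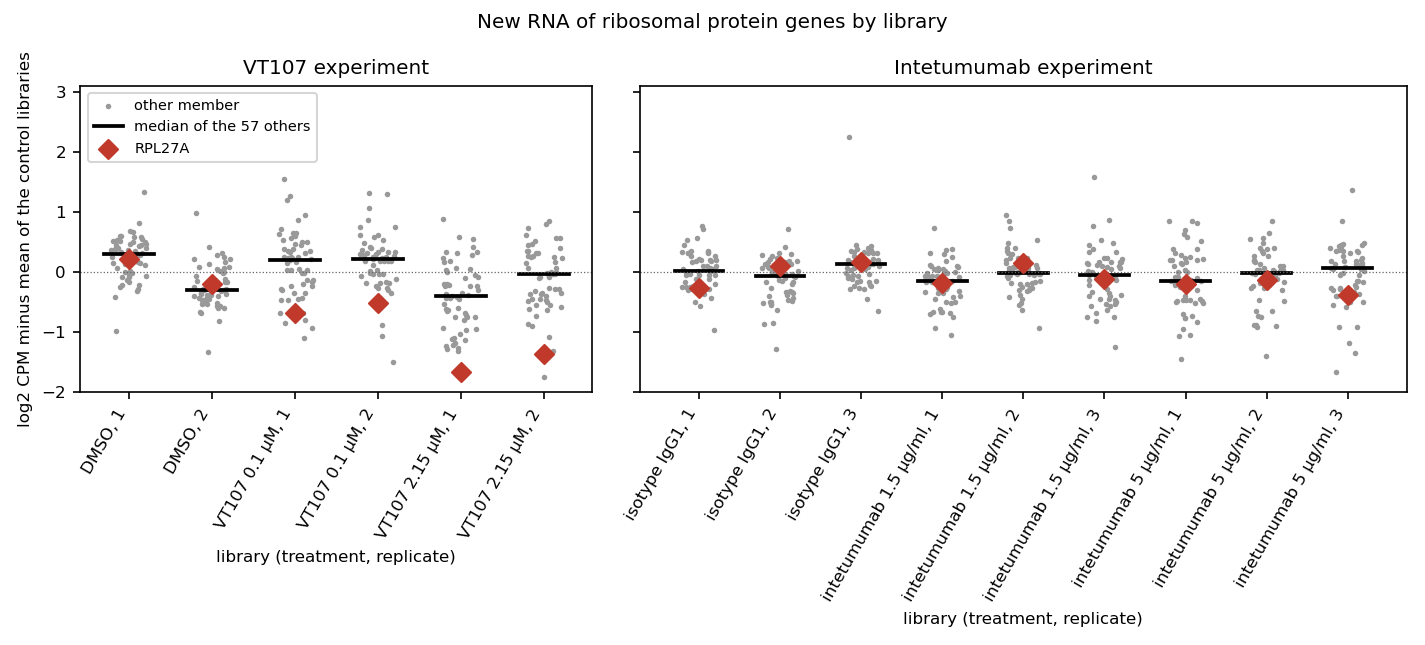
Each point is 1 ribosomal protein gene in 1 labelled library, as log2 CPM minus the mean of the control libraries (DMSO or isotype IgG1), with the bar at the median of the 57 genes other than RPL27A (diamond). RPL27A minus that bar was -1.27 and -1.34 at 2.15 µM VT107 and between -0.45 and 0.17 in the libraries of the intetumumab experiment.

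As a share of all counts in a library, the 58 genes held 1.619% and 1.187% with DMSO, 1.441% and 1.493% at 0.1 µM, and 1.028% and 1.242% at 2.15 µM. The group means were 1.40 ± 0.31%, 1.47 ± 0.037% and 1.14 ± 0.15% (SD, n = 2). The libraries at 2.15 µM overlapped those with DMSO and lay below both at 0.1 µM. Within the 58, RPL27A took 13.33% and 13.74% of the counts with DMSO, 8.717% and 9.471% at 0.1 µM, and 6.369% and 6.475% at 2.15 µM. These shares did not overlap between the groups. In the intetumumab experiment RPL27A took 6.319% to 8.350% with isotype IgG1, 6.995% to 7.981% at 1.5 µg/ml and 5.836% to 6.885% at 5 µg/ml, so all 9 of its labelled libraries were below both DMSO libraries. The experiments were prepared separately, and the cause of this gap was not tested.

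**Figure D2:**
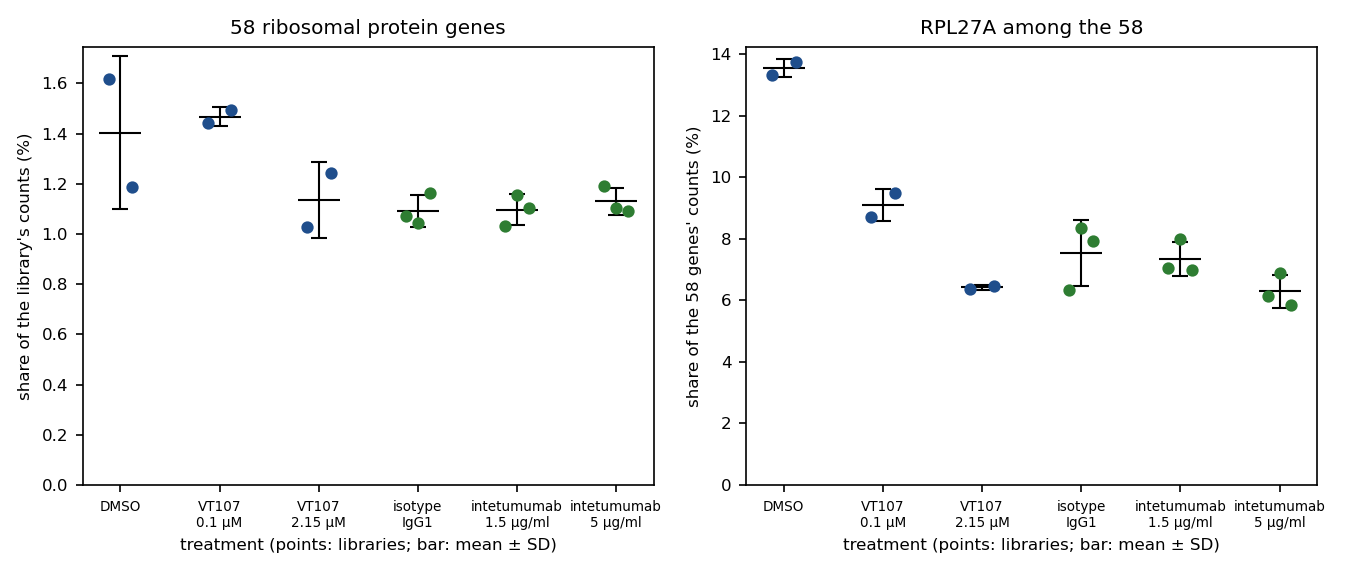
Left, the percent of a library's counts held by the 58 genes; right, the percent of those counts held by RPL27A. Points are labelled libraries, and bars are mean ± SD (n = 2 in the VT107 experiment, n = 3 in the intetumumab experiment). The RPL27A share was 13.33% and 13.74% with DMSO and 6.369% and 6.475% at 2.15 µM.

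Other large-subunit genes with low values at 2.15 µM were RPL13 (ENSG00000167526), RPL32 (ENSG00000144713) and RPL35A (ENSG00000182899). RPL13 had 305.9 and 341.2 CPM with DMSO, 201.4 and 113.1 CPM at 0.1 µM, and 132.0 and 128.0 CPM at 2.15 µM. Both doses lay below DMSO and overlapped each other, with log2 fold changes of -1.31 (SE 0.30) at 2.15 µM and -1.04 (SE 0.30) at 0.1 µM. Without the second library at 0.1 µM the latter was -0.69. RPL32 had 495.8 and 289.9 CPM with DMSO, 217.9 and 307.8 CPM at 0.1 µM, and 150.4 and 177.4 CPM at 2.15 µM. Its lower dose overlapped DMSO and its higher dose did not, with a log2 fold change of -1.26 (SE 0.31) at 2.15 µM. RPL35A, a gene mutated in Diamond-Blackfan anaemia, had 352.0 and 139.2 CPM with DMSO, 248.5 and 265.1 CPM at 0.1 µM, and 102.3 and 121.1 CPM at 2.15 µM. Its log2 fold change was -1.14 (SE 0.40) at 2.15 µM against DMSO and 0.07 (SE 0.39) at 0.1 µM. None of these genes had an adjusted p under 0.05 in edgeR's quasi-likelihood test. With DESeq2 5 of 58 had one at 2.15 µM, RPL27A, RPL13, RPL32 and RPS3A among them, and RPL13 had one at 0.1 µM. The share of all genes that DESeq2 called is not given here, and nothing is read from these counts.

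At the other end stood RPL10A (ENSG00000198755), a protein of the mobile stalk at the ribosome's exit site for tRNA, and RPL38 (ENSG00000172809), known from mice in which its loss alters translation of Hox mRNAs. RPL10A had 33.27 and 19.33 CPM with DMSO, 63.60 and 65.32 CPM at 0.1 µM, and 37.88 and 47.05 CPM at 2.15 µM. RPL38 had 41.86 and 51.22 CPM with DMSO, 108.4 and 118.1 CPM at 0.1 µM, and 58.44 and 71.72 CPM at 2.15 µM. In both genes the 0.1 µM libraries were highest, the 2.15 µM libraries next and the DMSO libraries lowest, with no overlap. The log2 fold changes against DMSO were 1.30 (SE 0.41) for RPL10A and 1.28 (SE 0.33) for RPL38 at 0.1 µM. At 2.15 µM they were 0.69 (SE 0.40) and 0.48 (SE 0.32), and that of RPL10A was 1.13 without the first DMSO library and 0.35 without the second. RPL29, the next highest, had 27.90 and 114.0 CPM in the DMSO libraries, which span most of its treated values, 81.75 to 169.6 CPM. Its log2 fold change at 2.15 µM, 0.40 (SE 0.57), was -0.27 without the first DMSO library and 1.75 without the second.

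The stalk that recruits translation factors to the large subunit is made of RPLP0, RPLP1 and RPLP2, with RPL12 at its base. RPLP0 (ENSG00000089157) had 868.2 and 708.4 CPM with DMSO, 1114 and 1014 CPM at 0.1 µM, and 636.3 and 734.2 CPM at 2.15 µM. It was higher at 0.1 µM than in the other groups, with a log2 fold change of 0.43 (SE 0.18) against DMSO and of -0.64 (SE 0.18) for 2.15 against 0.1 µM. At 2.15 µM against DMSO the log2 fold changes of these genes were -0.20 (SE 0.18) for RPLP0, 0.15 (SE 0.39) for RPLP1, -0.60 (SE 0.38) for RPLP2 and 0.28 (SE 0.29) for RPL12. RPL5 and RPL11, which bind the 5S ribosomal RNA and, outside the ribosome, the p53 regulator MDM2, had log2 fold changes of -0.42 (SE 0.37) and 0.36 (SE 0.44). The stalk genes and the RNA-binding pair thus each held values of both signs. The 7 genes at the rim of the exit tunnel (RPL17, RPL19, RPL22, RPL23A, RPL26, RPL31 and RPL35) had a median of 0.07 at 2.15 µM against DMSO, 4 of them positive. For 2.15 against 0.1 µM they were all negative, with a median of -0.23. In that comparison 51 of all 58 members were negative, with a median of -0.39.

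The 15 small-subunit genes had a median log2 fold change of -0.45 at 2.15 µM against DMSO, 13 of them negative, and the 43 large-subunit genes a median of -0.20, 26 of them negative. The difference between subunits was not tested, and the list holds only part of the small-subunit genes. RPS13 (ENSG00000110700) had 161.0 and 78.28 CPM with DMSO, 102.5 and 110.5 CPM at 0.1 µM, and 50.32 and 59.38 CPM at 2.15 µM. Its log2 fold change was -1.12 (SE 0.39) at 2.15 µM and -0.17 (SE 0.38) at 0.1 µM. RPS3 (ENSG00000149273), at the mRNA entry channel, had 707.2 and 376.0 CPM with DMSO, 286.2 and 277.6 CPM at 0.1 µM, and 225.1 and 337.0 CPM at 2.15 µM. Both doses lay below DMSO, with log2 fold changes of -0.95 (SE 0.33) at 2.15 µM and -0.94 (SE 0.33) at 0.1 µM. Without the first DMSO library the value at 0.1 µM was -0.42. RPS10, on the head of the subunit and also mutated in Diamond-Blackfan anaemia, had 180.3 and 85.05 CPM with DMSO, 184.9 and 155.8 CPM at 0.1 µM, and 59.52 and 95.63 CPM at 2.15 µM. It overlapped DMSO at both doses and lay lower at 2.15 than at 0.1 µM, by a log2 fold change of -1.14 (SE 0.41). RPS27A, made as a fusion with ubiquitin, had a log2 fold change of -0.08 (SE 0.37) at 2.15 µM. Of the 12 listed genes mutated in Diamond-Blackfan anaemia, 7 were negative at 2.15 µM against DMSO, with a median of -0.44, and 10 were positive at 0.1 µM, with a median of 0.34.

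**Figure D3:**
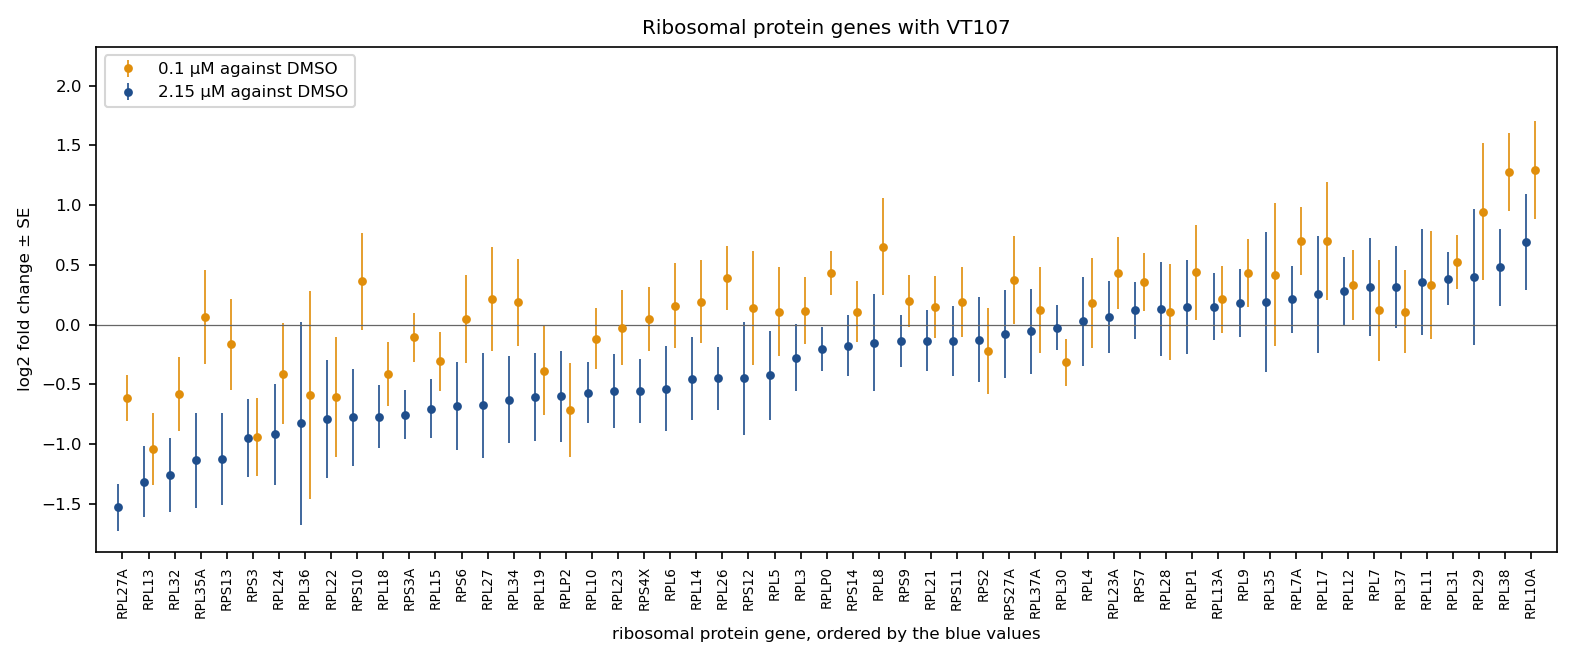
Log2 fold change ± SE of 55 of the ribosomal protein genes at 2.15 µM (blue) and 0.1 µM (orange) VT107 against the same 2 DMSO libraries, ordered by the blue values. Of those plotted, 37 were below 0 at 2.15 µM and 38 above 0 at 0.1 µM, and the highest 2 at either dose were RPL10A and RPL38.

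Over all 58 members the median log2 fold change was -0.24 at 2.15 µM, with 39 negative, and 0.13 at 0.1 µM, with 39 positive. Over all genes tested it was 0.03 and 0.01. The doses share their DMSO libraries, and those libraries differed: 42 of the 57 members other than RPL27A were above the DMSO mean in the first and below it in the second. Without the first DMSO library the members' median was -0.04 at 2.15 µM and 0.36 at 0.1 µM. Without the second it was -0.48 and -0.15, so the direction at 0.1 µM turned. With scaling to total counts in place of TMM the median over all genes tested moved to 0.18 at 2.15 µM and that of the members to -0.08, and at 0.1 µM these were 0.12 and 0.24.

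An unadjusted p under 0.05 was reached by 0 members upward and 10 downward at 2.15 µM, against 5.28% and 6.30% of all genes. At 0.1 µM it was 5 upward and 4 downward, against 5.98% and 6.11%. Both libraries at 2.15 µM lay below both DMSO libraries in 15 members and above in 6, where 20.6% and 24.1% of all genes did so. At 0.1 µM the counts were 7 below and 11 above, where 19.3% and 20.4% of all genes did so. These contrasts include the one that chose RPL27A, and nothing is read from the counts.

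The doses were also compared directly, a contrast that leaves the DMSO group out. The DMSO libraries still entered the filter, the TMM scaling and the estimate of spread behind the SEs and p-values. Of the 58 members, 51 had a negative fitted log2 fold change for 2.15 against 0.1 µM, with a median of -0.39 over members and -0.01 over all genes tested. All libraries were lower at 2.15 µM in 33 members and higher in 1, RPL30, against 19.0% and 20.1% of all genes. By unadjusted p the counts were 8 lower and 0 higher, against 2.76% and 2.54%. RPL27A, which was chosen by its values with VT107, is among the lower members in both counts. The 57 members without RPL27A had the same median, -0.39, with 50 negative. Of these 57, all libraries were lower in 32 and higher in 1, and by unadjusted p 7 were lower and 0 higher. Leaving out 1 library at a time moved the median over members between -0.60, without the second library at 2.15 µM, and -0.22, without the first. The lowest were RPL35A at -1.20 (SE 0.40), RPS10 at -1.14 (SE 0.41) and RPS13 at -0.96 (SE 0.39), and the highest were RPL30 at 0.29 (SE 0.19), RPL37 at 0.21 and RPL7 at 0.20. RPL37 was at -0.07 without the first library at 0.1 µM, and RPL7 at -0.14 without the first at 2.15 µM. The first library at 2.15 µM had the lowest share of counts on these genes, 1.028%, and its part in the result was not tested beyond leaving it out.

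With intetumumab no member passed. At 5 µg/ml 0 of 58 had an adjusted p under 0.05 in edgeR's quasi-likelihood test, where 0.0887% of 9024 genes did. At 1.5 µg/ml it was 0 of 58, where 0.0% did, and for 5 against 1.5 µg/ml 0 of 58, where 0.0111% did. DESeq2 also gave 0 members in each. By unadjusted p, 1 member was higher and 3 lower at 5 µg/ml, against 4.33% and 4.90% of all genes. At 1.5 µg/ml 2 were higher and 0 lower, against 2.40% and 3.07%. For 5 against 1.5 µg/ml 1 was higher and 2 lower, against 2.69% and 2.95%. The shares of members are near those of all genes in each direction. The median log2 fold change of the 58 was -0.02 at 5 µg/ml (26 positive, 32 negative) and -0.11 at 1.5 µg/ml (17 positive, 41 negative), and 0.05 for 5 against 1.5 µg/ml. The members held 1.042% to 1.162% of counts with isotype IgG1, 1.031% to 1.154% at 1.5 µg/ml and 1.093% to 1.192% at 5 µg/ml, and these ranges overlap.

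RPL27A had 697.2, 903.0 and 943.6 CPM with isotype IgG1, 738.5, 932.3 and 774.5 CPM at 1.5 µg/ml, and 735.0, 764.2 and 640.3 CPM at 5 µg/ml. The 3 groups overlap. Its log2 fold change was -0.25 (SE 0.15, adjusted p = 0.642 in edgeR's quasi-likelihood test) at 5 µg/ml and -0.06 (SE 0.15, adjusted p = 0.995) at 1.5 µg/ml. At 5 µg/ml its 95% interval runs from -0.55 to 0.04. Relative to isotype IgG1, where RPL27A minus the median of the other members was -0.28, 0.16 and 0.04, this difference was -0.04, 0.17 and -0.06 at 1.5 µg/ml. The libraries at 5 µg/ml gave -0.04, -0.11 and -0.45. Those values overlap too.

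The lowest member at 5 µg/ml was RPL35 (ENSG00000136942), at the rim of the exit tunnel. It had 28.71, 22.09 and 41.03 CPM with isotype IgG1, 29.59, 44.01 and 41.75 CPM at 1.5 µg/ml, and 20.74, 9.467 and 11.53 CPM at 5 µg/ml. All libraries at 5 µg/ml lay below all others. The raw counts behind this are low, at 9, 7 and 9 against 21, 16 and 38 with isotype IgG1 and 22, 38 and 20 at 1.5 µg/ml. The log2 fold change of RPL35 was -1.20 (SE 0.42, adjusted p = 0.394 by edgeR) against isotype and -1.52 (SE 0.42, adjusted p = 0.778 by edgeR) against 1.5 µg/ml, so it did not pass. RPL12 (ENSG00000197958), at the base of the stalk, had 46.48, 77.33 and 97.17 CPM with isotype IgG1, 67.26, 81.07 and 79.33 CPM at 1.5 µg/ml, and 32.26, 62.21 and 35.86 CPM at 5 µg/ml. Its libraries at 5 µg/ml overlapped isotype and lay below 1.5 µg/ml, with log2 fold changes of -0.74 (SE 0.33, adjusted p = 0.532 by edgeR) and -0.78 (SE 0.34, adjusted p = 0.857 by edgeR). Without the third isotype library the former was -0.49. RPL28 came next at -0.72 (SE 0.41). At 1.5 µg/ml the lowest members were RPL10A at -0.53 (SE 0.54), RPL32 at -0.52 (SE 0.32) and RPL11 at -0.51 (SE 0.50), values that differ by less than their errors. Leaving out 1 library at 1.5 µg/ml moved RPL10A between -1.05 and -0.23 and RPL11 between -0.93 and -0.25. Between the doses, RPL27, RPL24 and RPL34 were the highest, at 0.59 (SE 0.31), 0.55 (SE 0.26) and 0.49 (SE 0.38) for 5 against 1.5 µg/ml.

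RPL30 (ENSG00000156482) was among the highest members at both doses of intetumumab, with 1394, 1269 and 1237 CPM with isotype IgG1, 1599, 1611 and 1883 CPM at 1.5 µg/ml, and 2334, 1562 and 1414 CPM at 5 µg/ml. All treated libraries lay above all isotype libraries. The log2 fold change was 0.44 (SE 0.17, adjusted p = 0.423 by edgeR) at 5 µg/ml and 0.38 (SE 0.17, adjusted p = 0.899 by edgeR) at 1.5 µg/ml. Without the first library at 5 µg/ml the value at that dose was 0.20. RPL30 also had many counts without thiouridine, as described below. The doses share the isotype libraries. RPS9 (ENSG00000170889), at the mRNA entry channel, had 188.6, 233.4 and 277.5 CPM with isotype IgG1 and 287.9, 386.8 and 321.5 CPM at 1.5 µg/ml, with no overlap, and differed by 0.51 in log2 (SE 0.19, adjusted p = 0.872 by edgeR). At 5 µg/ml it had 267.3, 224.5 and 293.3 CPM, which overlapped isotype. At 5 µg/ml RPS13, low at 2.15 µM VT107, had a log2 fold change of 0.45 (SE 0.39), and RPL17 had 0.39 (SE 0.49). Without the third library at 5 µg/ml these were 0.20 and -0.67. RPL14 had 0.35 (SE 0.36) at 1.5 µg/ml, and -0.03 without the second library at that dose. RPL36 (ENSG00000130255) varied widely between replicates, with 4.101, 2.762 and 61.54 CPM with isotype IgG1 and 59.03 and 7.732 CPM with DMSO, and no difference between its groups is read from such values.

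**Figure D4:**
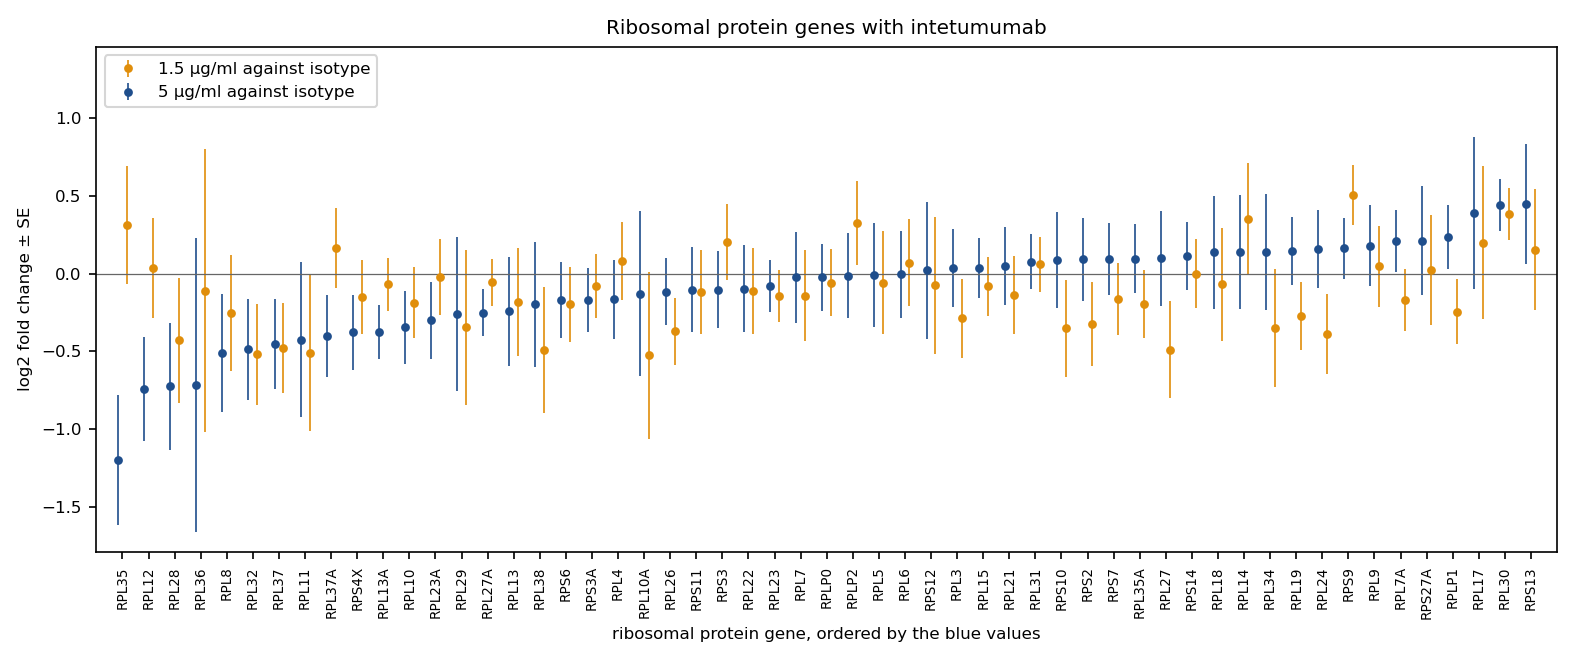
Log2 fold change ± SE of 55 of the ribosomal protein genes at 5 µg/ml (blue) and 1.5 µg/ml (orange) intetumumab against the same 3 isotype IgG1 libraries, ordered by the blue values. Values ran from -1.20 (RPL35) to 0.45 (RPS13) at 5 µg/ml, and 0 of 58 genes had an adjusted p under 0.05.

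The effects of the agents were set against each other in 1 fit of all 15 labelled libraries, as the log2 fold change at 2.15 µM VT107 minus that at 5 µg/ml intetumumab. Of 58 members, 0 had an adjusted p under 0.05, where 0.0782% of 10227 genes did. By unadjusted p 1 member was higher and 6 were lower, against 4.89% and 4.18% of all genes. The difference was -1.28 (SE 0.25) for RPL27A and -1.57 (SE 0.59) for RPS13, and 1.39 (SE 0.73) for RPL35 and 1.03 (SE 0.46) for RPL12. The median over members was -0.29, and 0.00 without the first DMSO library. This contrast contains the one that chose RPL27A and is a description.

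T>C counts also arise without thiouridine, which the unlabelled libraries show. The members held 405 of 10702 counts in the unlabelled library of the VT107 experiment (3.784%, exact 95% binomial interval 3.431 to 4.163%) and 394 of 4553 in that of the intetumumab experiment (8.654%, 7.853 to 9.508%). These intervals cover counting error only. In the labelled libraries the members' share was between 1.028% and 1.619%. RPL30, which is known to bind structured RNA including its own transcript in yeast, made up 280 of the 405 counts and 373 of the 394, and was the gene with the rank 2 count in each unlabelled library. Its unlabelled count was 46.51% of its mean labelled count in the VT107 experiment (mean 602, range 347 to 1067) and 34.12% in the intetumumab experiment (mean 1093, range 902 to 1391). These are ratios of raw T>C counts, not scaled to total reads, and do not give the part of its labelled counts that is background. Without RPL30 the members held 125 counts (1.168%) and 21 counts (0.461%).

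For the other members the unlabelled counts were low. In the VT107 experiment 35 of 58 members had 0 counts, and in the intetumumab experiment 53 had. RPL27A had 8 and 0 counts, where its labelled means were 1385 and 571.9. Among the next by their percent of the labelled mean were RPL35A with 14 counts (6.774%), RPL27 with 6 (3.554%) and RPLP1 with 5 (3.012%) in the VT107 experiment. In the intetumumab experiment RPL14 had 2 (4.072%), RPS3 had 11 (3.479%), RPS14 had 5 and RPS7 had 3, and no other member but RPL30 had any. The 57 members without RPL30 reached 0.8985% and 0.3037% of their labelled mean, where all genes reached 0.9489% and 0.6279%.

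**Figure D5:**
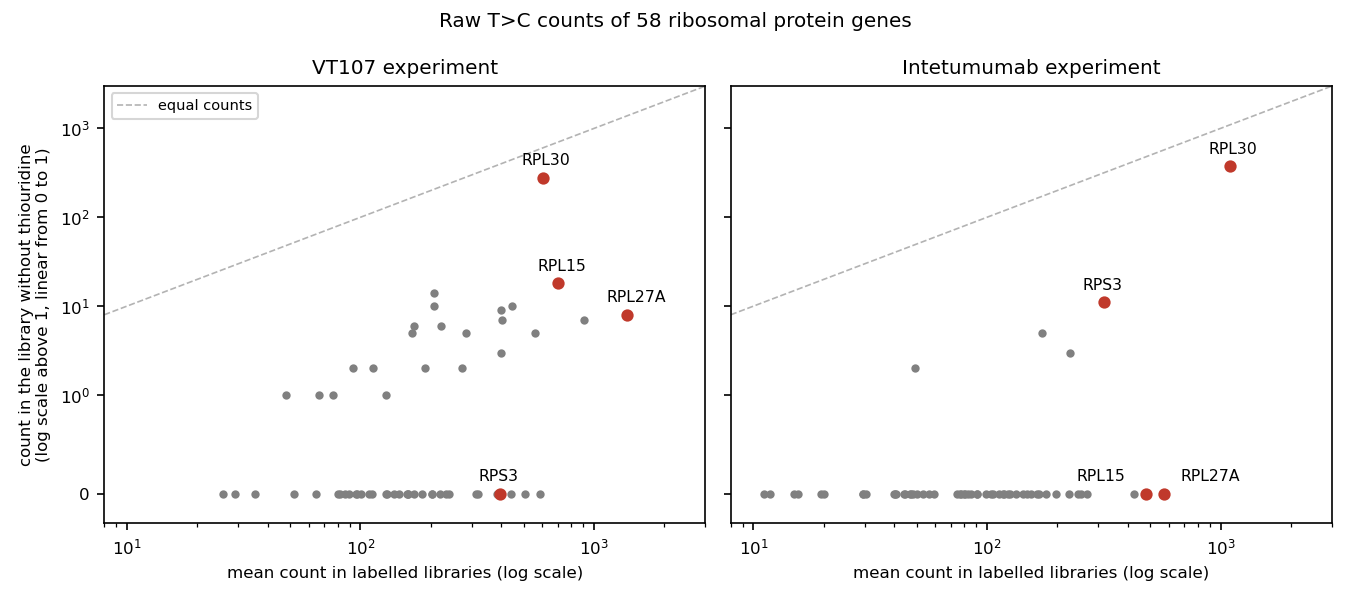
Raw counts of the 58 genes in the library without thiouridine (vertical, log scale above 1) against their mean raw count in the labelled libraries of the same experiment (horizontal, log scale), with a dashed line of equal counts. RPL30, at 280 and 373 counts, lay far above the other genes in both experiments, while RPL27A had 8 and 0.

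In some members the raw counts of all 15 labelled libraries were multiples of 1 number above 1, their common divisor. This held for 10 of 58 members (17.24%) and for 1456 of 9757 genes with enough counts (14.92%). Among them it was 2 for RPL3, RPL6, RPL7A and RPL12, 3 for RPLP2, and 4 for RPL9 and RPL19. Over all genes it reached 21. RPL27A, RPL13, RPL32, RPL30 and RPL35 had none. The values of RPL12 thus move in steps of 2 counts. With such counts divided by their divisor, RPL27A was again the 1 member called at 2.15 µM VT107. This contrast chose RPL27A, and nothing is read from that call. What made the counts multiples was not tested. After the values were seen, RPL10 was found to have multiples of 5 in 14 of 15 libraries and RPL17 multiples of 7 in 14 of 15.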

How the data were processed

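The authors deposited raw counts per Ensembl gene for 17 SLAM-seq libraries, made from QuantSeq 3′ libraries per the labels' protocols. The series design text names SLAM DUNK, and the submitters' processing notes name build GRCh38. Its version, the annotation, the conversions needed per read and the treatment of multi-mapping reads: not given in the sources used here. Members and lists were chosen with earlier results of these data known. Each experiment was fitted on its labelled libraries (6 and 9) with edgeR 4.0.16 in R 4.3.3: filterByExpr (minimum count 10), which kept all 58 members in both, TMM, quasi-likelihood F-test, two-sided, Benjamini-Hochberg over all genes tested, called at an adjusted p under 0.05. The SE is the fold change divided by the square root of F. Log2 CPM used a prior count of 2. The fit was tested on simulated data. No 2 libraries were identical.

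Named were RPL27A, called members, the 3 highest and 3 lowest members of each comparison, the 5 with the highest unlabelled ratio per experiment, members with a common divisor and the listed subgroups. RPL10 was named after its values were seen. A few members that this rule names are counted but not reported by name here. Divisors were sought in genes detected in 8 or more libraries and reaching 20 counts. Start regions came from RefSeq. The other lists (remaining ribosomal proteins, TOP translation factors, ribosome biogenesis, mitochondrial ribosome, cell type markers) were not used here, since no table links IDs to names. Alternatives were RLE or total count scaling, no filter, DESeq2 1.42.0, other sets of libraries, the replicate block, divided counts and leaving out each library. Same-numbered libraries did not deviate together (correlations -0.024 to 0.065).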

Additional observations from a re-analysis of the deposited data

Results flagged for a closer look

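In the libraries without thiouridine, which enter no comparison, RPL30 had 280 (VT107 experiment) and 373 counts (intetumumab experiment), and RPS14 had 10 and 5. They were singled out because only these members had more than 3 counts, the limit that a count of 0 allows, in both libraries. The cause was not tested.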

How the results depend on the processing

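The count of members called at 2.15 µM VT107 against DMSO, 1 by edgeR, was 0 with total count scaling, 0 with only the compared groups, 0 with the replicate block, 2 with all 15 labelled libraries (RPL27A among them), 4 with no filter (RPL27A, RPL13 and RPL32 among them) and 5 with DESeq2, and it ran from 0 to 1 when 1 library was left out. DESeq2 called 1 member at 0.1 µM (RPL13) and 1 at 2.15 against 0.1 µM (RPL27A). For the difference between agents the count of 0 became 1 with no filter, 2 with DESeq2 and 0 to 1 with 1 library left out. Shares of all genes called under these alternatives are not given here, so nothing about the members is read from these counts. The replicate block changed no other count of called members, and its RPL27A log2 fold change at 2.15 µM was -1.53. With 1 library left out, the RPL27A log2 fold change ran from -1.73 to -1.31 at 2.15 µM, from -0.81 to -0.39 at 0.1 µM and from -0.18 to 0.029 at 1.5 µg/ml intetumumab. RPL27A minus the median of the other members ran from -1.31 to -1.21 at 2.15 µM against DMSO and from -0.57 to -0.43 at 2.15 against 0.1 µM. Without RPL27A the members' mean share of counts was 1.33% at 0.1 µM, 1.01% with isotype IgG1, 1.015% at 1.5 µg/ml and 1.06% at 5 µg/ml. Without RPL30, an alternative chosen after seeing the data, their share of unlabelled counts was 1.17% and 0.461%. No called value changed sign under the alternatives run. With 1 library left out, the uncalled values of RPL17 at 5 µg/ml (0.39 to -0.67), RPL29 at 2.15 µM (0.40 to -0.27), RPL14 at 1.5 µg/ml (0.35 to -0.03), and RPL37 and RPL7 between the VT107 doses did, as did the members' median at 0.1 µM. At 1.5 µg/ml RPL27A (-0.06 to 0.029) and RPL27A minus the median of the other members (0.06 to -0.094) also changed sign. The members' median for the difference between agents moved from -0.29 to 0.0046. Except where a library or construction is named, the cause was not tested.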
